A study of Saccharomyces cerevisiae with 12 samples.

Results

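The phosphate regulon was followed here as 10 genes of budding yeast: PHO84 (YML123C), PHO89 (YBR296C), PHO5 (YBR093C), PHO11 (YAR071W), PHO8 (YDR481C), PHO81 (YGR233C), SPL2 (YHR136C), VTC1 (YER072W), VTC3 (YPL019C) and PHM6 (YDR281C). These genes were chosen by name, with earlier results of these data known. They are 10 of the 7126 gene identifiers in the deposited table, and all 10 had enough fragments to be tested. Cells of Saccharomyces cerevisiae (strain MGD353-13D) gave 12 RNA libraries, 2 in each of 6 groups, and were taken in mid log phase in the rich medium YPD. The study examined the Set1 complex, which methylates histone H3 at K4, and Jhd2, the demethylase that removes this methylation. The groups were a strain with both an Sdc1 point mutation and a JHD2 deletion (Sdc1_mut_Jhd2_KO), a strain with SDC1 deleted (Sdc1_KO), a strain whose Sdc1 lacks the DPY30 motif (Dpy30_KO), the Sdc1 point mutant alone (Sdc1_mut), a strain with JHD2 deleted (Jhd2_KO) and the wild type (WT). Sdc1 is the subunit of the Set1 complex that carries the DPY30 motif. The labels do not say which residue the point mutation changes, how many clones of each strain were used, or whether both libraries of a group are separate cultures. The p-values therefore measure the spread between these libraries, which may be technical.

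When phosphate is plentiful, the cyclin and kinase pair Pho80 and Pho85 phosphorylates the transcription factor Pho4 and keeps it out of the nucleus. When phosphate runs short, the inhibitor Pho81 blocks the kinase, and Pho4 with its partner Pho2 switches on genes for phosphate uptake, for phosphatases that release phosphate outside the cell or in the vacuole, and for the handling of vacuolar polyphosphate. PHO5 is a classic gene for the study of promoter chromatin, and PHO84 is known for an antisense RNA. The labels name rich medium for all groups and no phosphate limitation.

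Pho4 binds the palindrome CACGTG and, less strongly, CACGTT. Both words were searched on both strands in the 500 bases before each start codon, in the RefSeq sequence of the build R64 (sacCer3). CACGTG was found upstream of 9 of the 10 genes, against 6.23% of 6000 genes of the genome, and CACGTT upstream of 8 of the 10, against 16% of genome genes. Every one of the 10 held at least 1 of these words, with 22 matches in all, while 21% of genome genes did. SPL2 held 4 palindromes and PHO8 held only a single CACGTT. The 500 bases run into a neighbouring gene for PHO84, PHO8 and VTC1. The PHO8 match, at 380 to 375 bases, lies beyond the 180 bases that separate PHO8 from CWC21. All PHO84 matches, at 436 to 257 bases, lie beyond the 237 bases that separate it from YML122C. A match is a description of the letters and does not show that a factor sits there. The 3 windows below are shown because they precede the 2 transporter genes and the acid phosphatase gene that all rose in Sdc1_mut_Jhd2_KO. All 3 lie on the minus strand, at chrXIII:25951-26250 for PHO84, chrII:798703-799002 for PHO89 and chrII:431052-431351 for PHO5. They are printed 5′ to 3′ along the gene, with both words in capitals on whichever strand they match.
PHO84: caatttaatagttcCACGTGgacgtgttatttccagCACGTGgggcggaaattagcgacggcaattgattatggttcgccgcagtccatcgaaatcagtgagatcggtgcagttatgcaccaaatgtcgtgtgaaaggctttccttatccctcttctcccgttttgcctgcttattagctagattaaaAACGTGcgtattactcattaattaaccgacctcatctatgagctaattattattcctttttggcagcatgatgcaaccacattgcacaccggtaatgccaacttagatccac
PHO89: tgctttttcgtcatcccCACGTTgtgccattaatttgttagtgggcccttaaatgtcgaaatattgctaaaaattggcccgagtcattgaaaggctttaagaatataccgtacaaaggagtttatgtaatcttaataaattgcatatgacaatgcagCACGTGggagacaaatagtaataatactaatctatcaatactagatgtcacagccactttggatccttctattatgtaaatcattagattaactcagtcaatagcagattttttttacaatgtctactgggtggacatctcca
PHO5: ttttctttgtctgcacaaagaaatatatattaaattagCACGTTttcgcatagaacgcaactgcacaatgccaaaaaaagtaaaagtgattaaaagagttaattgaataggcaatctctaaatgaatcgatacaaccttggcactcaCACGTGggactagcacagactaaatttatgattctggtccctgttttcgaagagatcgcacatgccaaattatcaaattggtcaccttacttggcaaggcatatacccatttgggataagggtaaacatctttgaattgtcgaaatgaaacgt
Of the others, PHM6, PHO8 and PHO81 are shown by 1 match each with its flanking bases, for the low-level gene with the largest fold changes, the gene with CACGTT only, and the regulator that fell in Sdc1_KO.
PHM6: gcttcgctgaCACGTGggaggtggga
PHO8: catatggagaAACGTGagattgaagt
PHO81: ggtgttatggCACGTGcgaataaggg

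**Figure D1:**
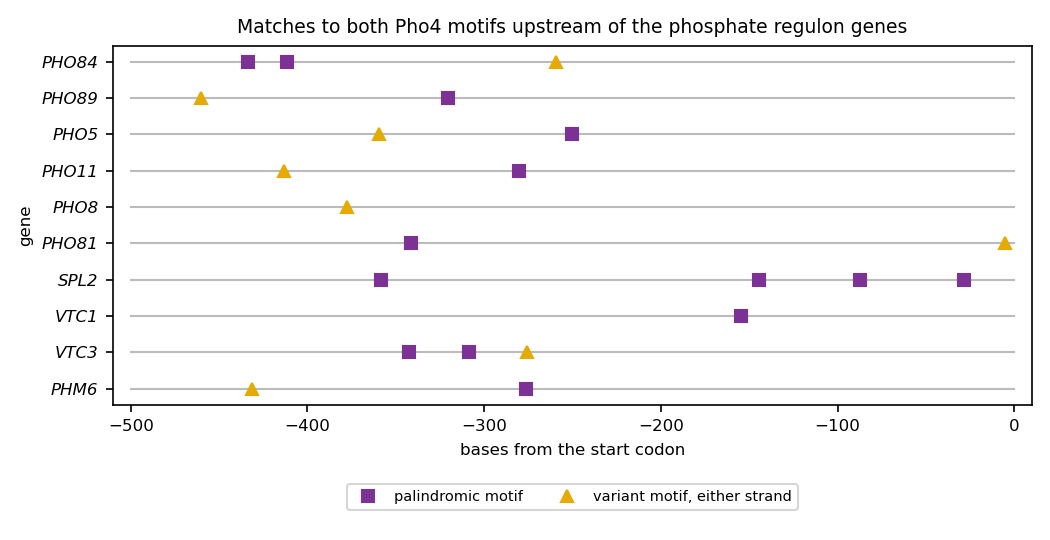
Positions of the matches in the 500 bases before the start codon of each of the 10 genes (x axis, bases from the start codon), with squares for the palindrome and triangles for the variant on either strand. SPL2 has 4 squares, and PHO8 has a triangle and no square.

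The libraries held 8652878 to 26041718 fragments. SDC1 had 0 fragments in both Sdc1_KO libraries and JHD2 had 0 in both Jhd2_KO and both Sdc1_mut_Jhd2_KO libraries. A count of 0 allows up to 3 fragments, or at most 0.347 CPM (fragments scaled to a common library size) in these libraries, against WT means of 24.9 ± 0.91 CPM for SDC1 and 5.31 ± 1.36 CPM for JHD2 (SD, n = 2). Mitochondrially encoded RNA stood apart: it had 9 to 16 fragments per library in Sdc1_mut_Jhd2_KO, 8 to 17 in Dpy30_KO and 2 to 9 in Sdc1_mut, against 48206 to 53217 in Sdc1_KO, 29200 to 37856 in Jhd2_KO and 35121 to 62765 in WT. The 2 Sdc1_KO libraries differed most from each other: over all genes, their log2 differences had an SD of 0.429, while the other groups had 0.247 to 0.296.

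In WT the 10 genes covered a wide range of levels per length. On the authors' FPKM scale the WT mean was 429.5 ± 13.5 for VTC1, 55.4 ± 7.30 for PHO8, 36.9 ± 1.65 for VTC3, 32.8 ± 1.64 for PHO84 and 27.9 ± 4.51 for PHO81 (SD, n = 2 each). It was 16.8 ± 0.51 for PHO5, 8.85 ± 1.79 for SPL2, 4.04 ± 0.15 for PHO89, 1.00 ± 0.23 for PHM6 and 0.75 ± 0.11 for PHO11. PHO84 and PHO81, and PHM6 and PHO11, are neighbours in this order whose means differ by less than the sum of their SDs. VTC1, a small subunit of the polyphosphate polymerase, was thus the highest per length, and PHM6 and the acid phosphatase gene PHO11 were the lowest pair.

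Below, levels are CPM by library, each log2 fold change is given ± its standard error (SE), and a gene is called where the adjusted p of edgeR's quasi-likelihood test over 6361 genes is under 0.05. Of the 10 genes, 6 were called in Sdc1_mut_Jhd2_KO against WT, 5 higher and 1 lower, where 59.2% of all genes tested were called. In Sdc1_KO against WT 3 were called, 2 higher and 1 lower, where 50.4% of all genes were called. Dpy30_KO had 4 called, all higher, with 52.4% of all genes called. Sdc1_mut had 3 called, all higher, with 52.5% of all genes called. Taken in either direction, these counts are under the shares of all genes, apart from Sdc1_mut_Jhd2_KO, where 6 of 10 is close. Of all genes, 29.1% were called higher in Sdc1_mut_Jhd2_KO, 28.0% in Sdc1_KO, 27.2% in Dpy30_KO and 27.9% in Sdc1_mut. The higher counts of members are above these shares in Sdc1_mut_Jhd2_KO and Dpy30_KO, close in Sdc1_mut and under in Sdc1_KO. No count was tested against its share. The counts include PHM6, which passed the filter on low counts only through the libraries where it is high. Without PHM6, 5 of 9 genes were called in Sdc1_mut_Jhd2_KO (4 higher), 2 in Sdc1_KO (1 higher), 3 in Dpy30_KO (3 higher) and 2 in Sdc1_mut (2 higher). The median log2 fold change of the 10 genes was 0.81 in Sdc1_mut_Jhd2_KO, 0.02 in Sdc1_KO, 0.28 in Dpy30_KO and 0.35 in Sdc1_mut, while the median of all genes lay between 0.00 and 0.04 in these comparisons. Without PHM6 the medians were 0.78 in Sdc1_mut_Jhd2_KO, -0.11 in Sdc1_KO, 0.26 in Dpy30_KO and 0.28 in Sdc1_mut. In Jhd2_KO against WT none of the 10 was called by edgeR, where 1.63% of all genes were called. Of these 10, 2 had an unadjusted p under 0.05 in edgeR, DESeq2 called 1 (VTC3) and limma-trend called 0. All comparisons with WT share the same 2 WT libraries.

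**Figure D2:**
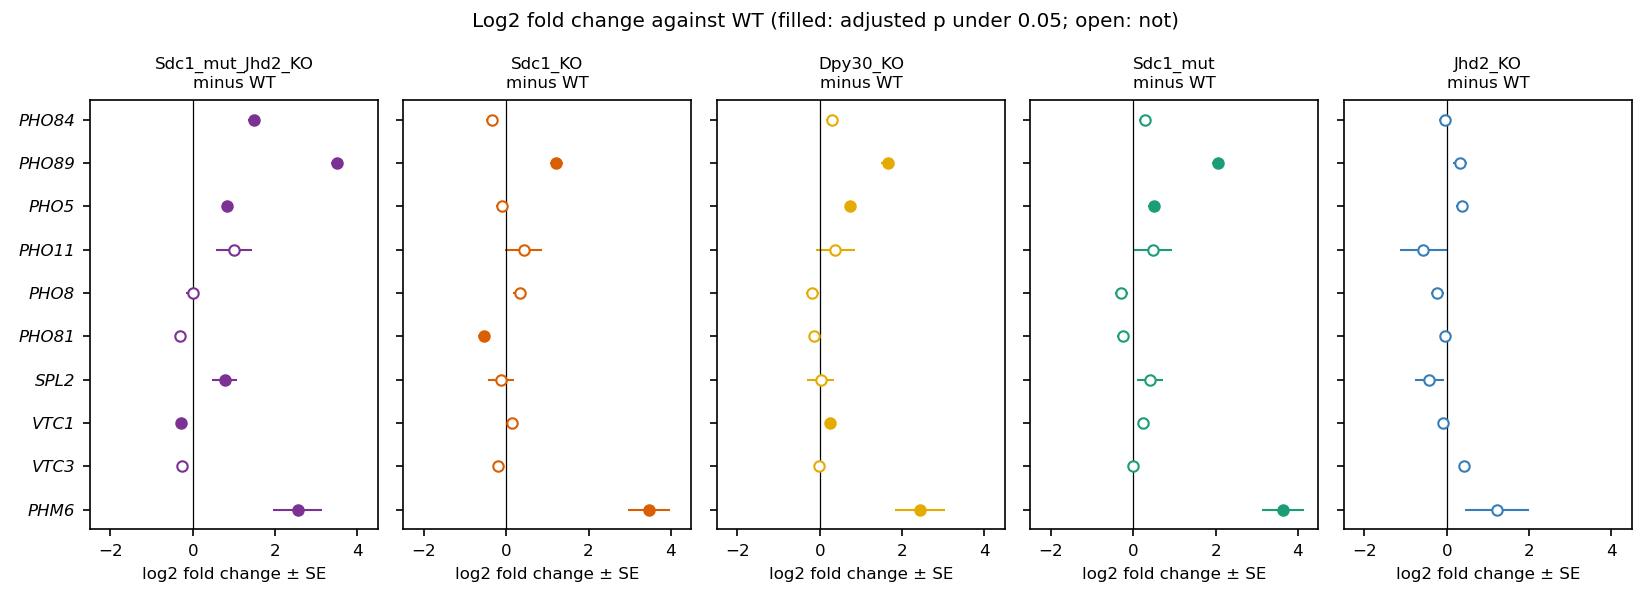
Log2 fold change ± SE of the 10 genes (rows) in each mutant strain against WT (panels, n = 2 libraries a group); filled points passed an adjusted p of 0.05. PHO89 and PHM6 are filled on the higher side in 4 of the 5 panels, and no point is filled in Jhd2_KO.

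PHO84 encodes the main high-affinity phosphate transporter, which takes up phosphate with protons. Its level was 156 and 139 CPM in Sdc1_mut_Jhd2_KO, 38.6 and 44.2 in Sdc1_KO, 54.9 and 73.6 in Dpy30_KO, 60.6 and 66.4 in Sdc1_mut, 46.1 and 55.0 in Jhd2_KO, and 54.0 and 50.8 in WT. Both libraries of Sdc1_mut_Jhd2_KO stood above all 10 others, and those of Sdc1_KO lay below both WT libraries. Against WT it rose in Sdc1_mut_Jhd2_KO by 1.49 ± 0.14 (2.81-fold, adjusted p 2.5e-06). The log2 fold change against WT was 0.28 ± 0.14 in Sdc1_mut (adjusted p 0.11), 0.29 ± 0.14 in Dpy30_KO (0.095) and -0.34 ± 0.14 in Sdc1_KO (0.057), none of them called. The value in Dpy30_KO is 0.49 and called (adjusted p 0.016) without Dpy30_KO replicate 1, and that in Sdc1_KO is -0.44 and called (adjusted p 0.02) without Sdc1_KO replicate 2. The Sdc1_KO value was also called with RLE scaling and with DESeq2 (-0.37, adjusted p 0.04 in both), and that in Sdc1_mut with only the groups compared in the fit (0.26, 0.022). An antisense RNA gene, YNCM0001W, covers all 1764 bases of PHO84 (chromosome XIII, 24037 to 25800, minus strand). Whether the counting used strand is not given in the sources used here, so fragments of PHO84 and of its antisense RNA cannot be told apart. In bulk RNA, more cells with the RNA and more RNA per cell cannot be told apart either.

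PHO89 encodes the other high-affinity transporter, which takes up phosphate with sodium and works best at alkaline pH. It had 78.5 and 94.2 CPM in Sdc1_mut_Jhd2_KO, 17.0 and 18.6 in Sdc1_KO, 24.6 and 23.2 in Dpy30_KO, 27.9 and 35.8 in Sdc1_mut, 10.2 and 9.11 in Jhd2_KO, and 7.68 and 7.58 in WT. No 2 of these groups overlapped, and the order was Sdc1_mut_Jhd2_KO, Sdc1_mut, Dpy30_KO, Sdc1_KO, Jhd2_KO and WT. It rose against WT in each strain with a changed SDC1, by 3.50 ± 0.15 in Sdc1_mut_Jhd2_KO (11.3-fold, adjusted p 9.5e-09), 2.06 ± 0.15 in Sdc1_mut (5.3e-07), 1.65 ± 0.15 in Dpy30_KO (3.4e-06) and 1.22 ± 0.15 in Sdc1_KO (4.6e-05). In Jhd2_KO the log2 fold change was 0.33 ± 0.17 (adjusted p 0.34). These 4 calls held under every alternative tried. Mitochondrially encoded RNA was near 0 in 3 of the 4 strains where PHO89 rose and at 48206 to 53217 fragments in Sdc1_KO, where it rose too; the part of this RNA in the PHO89 result was not tested.

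PHO5 encodes the main secreted acid phosphatase. It had 44.9 and 37.4 CPM in Sdc1_mut_Jhd2_KO, 24.2 and 18.6 in Sdc1_KO, 37.6 and 39.3 in Dpy30_KO, 31.9 and 33.0 in Sdc1_mut, 29.9 and 29.2 in Jhd2_KO, and 23.5 and 22.5 in WT. The Sdc1_KO libraries lay on either side of WT, and both libraries of every other mutant lay above it. PHO5 rose by 0.84 ± 0.13 in Sdc1_mut_Jhd2_KO (adjusted p 0.00014), 0.74 ± 0.13 in Dpy30_KO (0.00052) and 0.50 ± 0.13 in Sdc1_mut (0.0071). In Jhd2_KO the value was 0.36 ± 0.13 (0.19) and in Sdc1_KO -0.11 ± 0.13 (0.53), neither called. The 3 strains in which PHO5 rose are the 3 with mitochondrially encoded RNA near 0, and the part of that loss in the PHO5 result was not tested. PHO5 shares 86.6% of its bases with the constitutive acid phosphatase gene PHO3, so part of its fragments may be uncertain.

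PHO11, another secreted acid phosphatase gene, was near the limit of detection. Its level ran from 0.694 CPM in a Jhd2_KO library to 2.57 CPM in a Sdc1_mut_Jhd2_KO library, with 6 to 36 fragments per library, and none of its comparisons was called. PHO11 is 99.7% identical to PHO12, so the counting could split or move fragments between them. With the counts of PHO11 and PHO12 summed, the log2 fold change in Sdc1_mut_Jhd2_KO was 0.72 and called (adjusted p 0.039), against 1.00 ± 0.43 (0.063) for PHO11 alone. Treatment of fragments that map to several places is not given in the sources used here.

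PHO8 encodes the vacuolar alkaline phosphatase. It had 132 and 127 CPM in Sdc1_mut_Jhd2_KO, 200.3 and 124 in Sdc1_KO, 116 and 113 in Dpy30_KO, 105 and 107 in Sdc1_mut, 109 and 111 in Jhd2_KO, and 138 and 121 in WT. A single Sdc1_KO library, replicate 1, stood above all others, and the other Sdc1_KO library lay within the WT range. No comparison with WT was called in the fit of all 12 libraries, while with only the groups compared the value in Sdc1_mut was -0.31 and called (adjusted p 0.0081). The log2 fold change in Sdc1_KO was 0.33 ± 0.16 (adjusted p 0.11). Without Sdc1_KO replicate 1 it was -0.08, and without Sdc1_KO replicate 2 it was 0.63 and called (adjusted p 4.1e-05).

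Among the regulators, PHO81, the inhibitor of the Pho80 and Pho85 kinase, had 84.6 and 72.3 CPM in Sdc1_mut_Jhd2_KO, 59.8 and 72.6 in Sdc1_KO, 81.8 and 95.2 in Dpy30_KO, 79.4 and 82.2 in Sdc1_mut, 98.4 and 89.8 in Jhd2_KO, and 105 and 88.2 in WT. It was below WT in both Sdc1_KO libraries and fell there by 0.55 on the log2 scale (SE 0.13, adjusted p 0.0035). This call held under every alternative, with the largest adjusted p at 0.048. Both Sdc1_mut_Jhd2_KO libraries also lay below WT, at -0.30 ± 0.13, which was not called (adjusted p 0.056) but was without WT replicate 2 (0.03) or Sdc1_mut_Jhd2_KO replicate 1 (0.043) and with only the groups compared (0.04). That last fit also called PHO81 lower in Sdc1_mut (-0.28, adjusted p 0.019). SPL2, a small protein that down-regulates the low-affinity transporters, had 5.25 and 5.42 CPM in Sdc1_mut_Jhd2_KO, 2.22 and 3.44 in Sdc1_KO, 2.86 and 3.45 in Dpy30_KO, 4.92 and 3.43 in Sdc1_mut, 3.24 and 1.57 in Jhd2_KO, and 3.46 and 2.72 in WT. The Sdc1_mut_Jhd2_KO libraries were the 2 highest of all 12. SPL2 rose there by 0.78 ± 0.30 (adjusted p 0.04). Leaving out either library of either group ended this call, with adjusted p-values of 0.06 and 0.19 without WT replicates 1 and 2, and 0.11 and 0.13 without Sdc1_mut_Jhd2_KO replicates 1 and 2, and limma-trend did not make it (0.064).

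VTC1 and VTC3 encode subunits of the vacuolar transporter chaperone complex, which makes polyphosphate. VTC1 had 82.2 and 98.2 CPM in Sdc1_mut_Jhd2_KO, 117 and 126 in Sdc1_KO, 125 and 137 in Dpy30_KO, 126 and 129 in Sdc1_mut, 104 and 103 in Jhd2_KO, and 106 and 113 in WT. It lay below WT in both Sdc1_mut_Jhd2_KO libraries and above it in the 3 other SDC1 mutants. The fall in Sdc1_mut_Jhd2_KO was -0.28 ± 0.10 (adjusted p 0.032) and the rise in Dpy30_KO was 0.26 ± 0.10 (0.043). Both calls were fragile: without Sdc1_mut_Jhd2_KO replicate 1 the fall was -0.16 (adjusted p 0.27), it was also lost without WT replicate 1 (0.053) or 2 (0.15), and the rise in Dpy30_KO was lost without WT replicate 1 (0.2) or 2 (0.073) and without Dpy30_KO replicate 1 (0.053) or 2 (0.23). DESeq2 made neither call (adjusted p 0.052 for the fall and 0.071 for the rise), and RLE scaling put the rise at 0.05. VTC3 had 75.1 and 73.7 CPM in Sdc1_mut_Jhd2_KO, 71.9 and 84.7 in Sdc1_KO, 80.1 and 96.5 in Dpy30_KO, 86.6 and 90.6 in Sdc1_mut, 113 and 126 in Jhd2_KO, and 90.9 and 87.3 in WT. Jhd2_KO was the highest group and its libraries overlapped with no other. The log2 fold change there, 0.42 ± 0.11, was not called by edgeR (adjusted p 0.073) and was called by DESeq2 (0.047). With only the groups compared VTC3 was called in Jhd2_KO (0.42, 0.0079) and, lower, in Sdc1_mut_Jhd2_KO (-0.25, 0.033).

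PHM6, a gene of unknown function induced at low phosphate, rested on few fragments. It had 9 and 15 fragments in Sdc1_mut_Jhd2_KO, 32 and 20 in Sdc1_KO, 11 and 9 in Dpy30_KO, 18 and 28 in Sdc1_mut, 3 and 4 in Jhd2_KO, and 4 and 3 in WT. Every library with a changed SDC1 had more than every library without one, also after scaling for depth. PHM6 passed the filter on low counts only through those libraries, so its calls after that filter are no support on their own, and its adjusted p-values are given from the edgeR fit with no filter. There the log2 fold change against WT was 3.64 ± 0.54 in Sdc1_mut (adjusted p 0.00011), 3.47 ± 0.53 in Sdc1_KO (0.00018), 2.54 ± 0.61 in Sdc1_mut_Jhd2_KO (0.0028) and 2.43 ± 0.63 in Dpy30_KO (0.0056). The summed counts gave a ratio to WT of 13.2 in Sdc1_mut, with an exact 95% interval of 5.91 to 34.6 that covers counting error only, 11.6 (5.24 to 30.2) in Sdc1_KO, 6.12 (2.56 to 16.8) in Sdc1_mut_Jhd2_KO and 5.66 (2.30 to 15.9) in Dpy30_KO. With limma-trend, after the filter, the log2 values against WT were 1.77 to 2.84 in these strains.

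**Figure D3:**
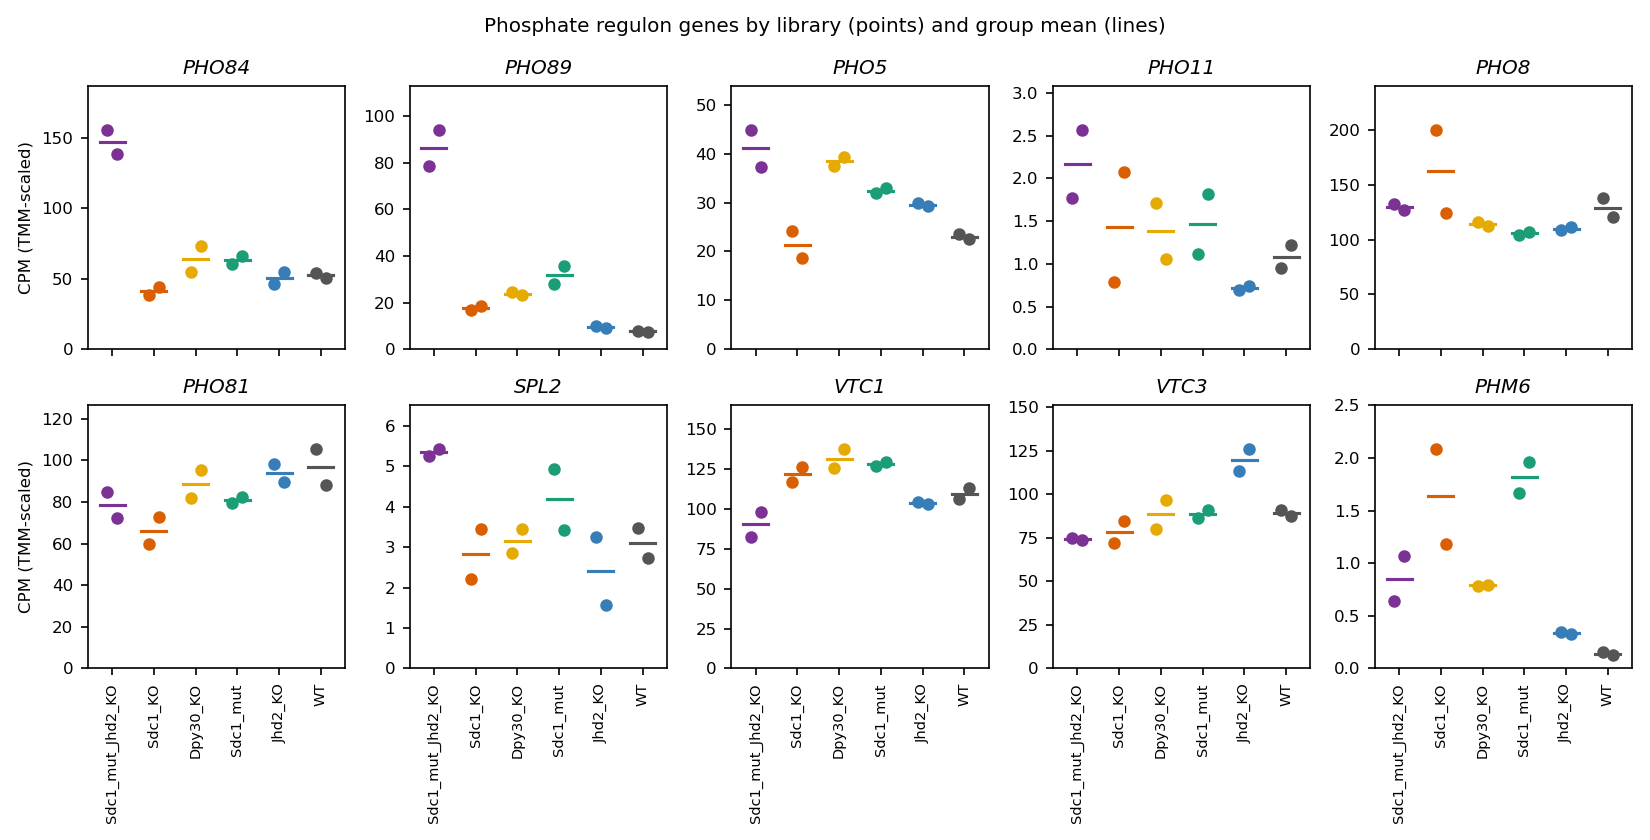
CPM (y axis, from 0) of each of the 10 genes by strain, with a point for each library and a line at the mean of the 2. PHO84 and PHO89 stand highest in Sdc1_mut_Jhd2_KO, at 139 to 156 and 78.5 to 94.2 CPM, and PHM6 is higher in every library with a changed SDC1 than in Jhd2_KO and WT.

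Loss of JHD2 was next compared within the Sdc1 point mutant and within WT. The RNA lost was not the same in both: JHD2 had 13.6 ± 0.86 CPM in Sdc1_mut and 5.31 ± 1.36 CPM in WT (SD, n = 2 each), a rise of 1.35 ± 0.21 in Sdc1_mut (adjusted p 0.00035), and the part of this in the comparisons below was not tested. In Sdc1_mut_Jhd2_KO against Sdc1_mut, 3 of the 10 genes were called, 2 higher and 1 lower, where 32.5% of all genes were called. PHO89 rose by 1.43 ± 0.13 (2.70-fold, adjusted p 2.2e-05) and PHO84 by 1.21 ± 0.14 (2.32-fold, 8.9e-05), while VTC1 fell by 0.50 (SE 0.10, 0.0028). The median over the 10 was 0.32, against -0.04 over all genes. Libraries on both sides of this comparison had mitochondrially encoded RNA near 0, at 9 to 16 fragments in Sdc1_mut_Jhd2_KO and 2 to 9 in Sdc1_mut.

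The change with JHD2 loss differed between the point mutant and WT for 3 of the 10 genes, where 20.4% of all genes were called in this test of the interaction. The difference of the 2 log2 changes was 1.26 ± 0.20 for PHO84 (adjusted p 0.0016), whose change was 1.21 in the point mutant and -0.05 in WT. It was 1.10 ± 0.21 for PHO89 (0.0044), with 1.43 in the point mutant and 0.33 in WT. VTC3 went the other way, with a difference of -0.68 ± 0.16 (0.011), from -0.25 in the point mutant and 0.42 in WT, neither of which was called alone. The VTC3 call was lost without Sdc1_mut replicate 2 (adjusted p 0.051) or Jhd2_KO replicate 2 (0.055). PHO5 gave a difference of -0.02 ± 0.19 (0.96), from 0.34 in the point mutant and 0.36 in WT. For VTC1 the difference was -0.43 ± 0.14, just short of a call (0.054), and called without Sdc1_mut_Jhd2_KO replicate 2 (0.032). The 2 changes use no library in common, but the fit shares 1 estimate of the spread. Mitochondrially encoded RNA differed between the backgrounds. It had 9 to 16 fragments in Sdc1_mut_Jhd2_KO and 2 to 9 in Sdc1_mut, against 29200 to 37856 in Jhd2_KO and 35121 to 62765 in WT. The design does not separate this from the point mutation, and its part in the interaction was not tested.

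**Figure D4:**
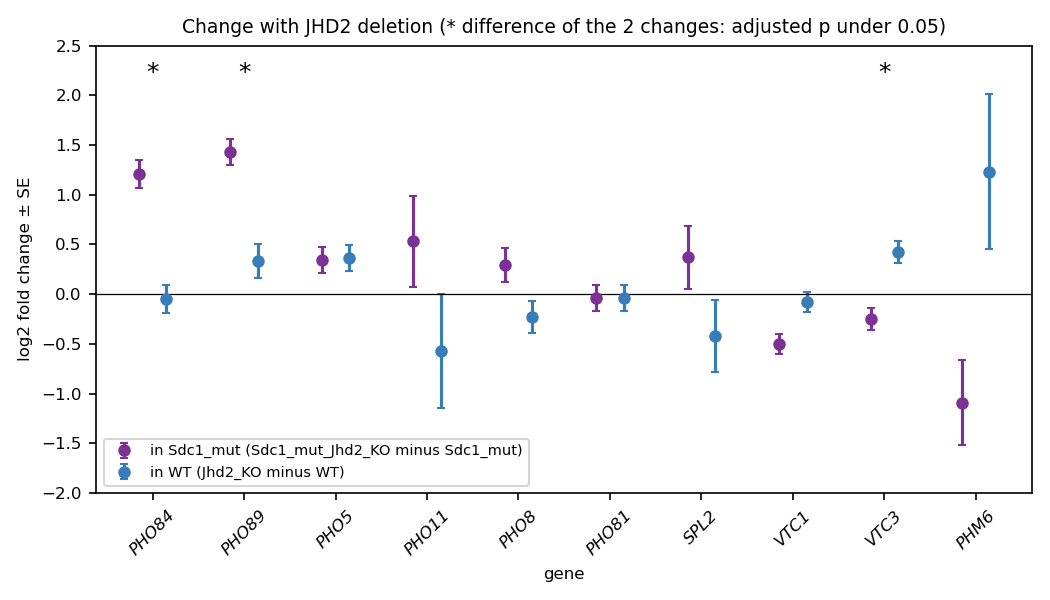
Log2 fold change ± SE with JHD2 deletion for the 10 genes, in the Sdc1 point mutant (purple) and in WT (blue), with a star where the difference of both changes passed an adjusted p of 0.05. The purple points of PHO84 and PHO89 lie at 1.21 and 1.43 and the blue ones at -0.05 and 0.33.

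The strains with a changed SDC1 were compared with each other. They differ in SDC1 RNA, which had 0 fragments in Sdc1_KO, 14.4 ± 0.12 CPM in Dpy30_KO, 38.8 ± 0.53 CPM in Sdc1_mut and 24.9 ± 0.91 CPM in WT (SD, n = 2 each). Sdc1 lacks the DPY30 motif in Dpy30_KO, so a removed part of SDC1 would give no fragments there. Its count is then not a like measure of the transcript level. In Sdc1_KO against Sdc1_mut, 4 of the 10 genes were called, 1 higher and 3 lower, where 21.4% of all genes were called. PHO89 was lower in the deletion by -0.84 ± 0.14 (adjusted p 0.0012), PHO84 by -0.62 ± 0.14 (0.0082) and PHO5 by -0.60 ± 0.14 (0.0076), and PHO8 was higher by 0.62 ± 0.17 (0.019). Without Sdc1_mut replicate 2 the adjusted p was 0.074 for PHO84, 0.059 for PHO5 and 0.094 for PHO8, and only PHO89 remained called. Without Sdc1_KO replicate 1 the PHO8 value was 0.22 (0.13), and without Sdc1_mut replicate 1 it was 0.60 (0.11). With only the groups compared PHO5 (-0.59, 0.1) and PHO8 (0.63, 0.16) were not called. Mitochondrially encoded RNA differed in the same comparison, at 48206 to 53217 fragments in Sdc1_KO and 2 to 9 in Sdc1_mut, and its part in these differences was not tested. In Dpy30_KO against Sdc1_mut edgeR called 0.0157% of all genes, SDC1 alone (-1.43, adjusted p 0.00047), and none of the 10. In this comparison 2 had an unadjusted p under 0.05, PHO89 at -0.42 ± 0.14 (0.011) and PHM6 at -1.20 ± 0.44 (0.018), and neither DESeq2 nor limma-trend called any.

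The rest of the pathway was read from 26 other genes in 4 lists, all of which passed the filter. Against WT, edgeR called 13 of the 26 in Sdc1_mut_Jhd2_KO (6 higher, 7 lower), where 59.2% of all genes were called, and 15 in Sdc1_KO (11 higher, 4 lower), where 50.4% were. It called 17 in Dpy30_KO (9 higher, 8 lower), with 52.4% of all genes called, and 14 in Sdc1_mut (8 higher, 6 lower), with 52.5%. The count in Sdc1_mut_Jhd2_KO is under the share of all genes, those in Sdc1_KO and Dpy30_KO are above it, and that in Sdc1_mut is close. The share of all genes called higher was 29.1% in Sdc1_mut_Jhd2_KO, 28.0% in Sdc1_KO, 27.2% in Dpy30_KO and 27.9% in Sdc1_mut. No such count was tested against its share. In Jhd2_KO, where 1.63% of all genes were called, edgeR called 1, PHO90, which was lower, and DESeq2 and limma-trend each called 2, PHO90 and DIA3. Their median log2 fold change was -0.11 in Sdc1_mut_Jhd2_KO, 0.28 in Sdc1_KO, 0.05 in Dpy30_KO, 0.08 in Sdc1_mut and 0.12 in Jhd2_KO. Over the 9 comparisons these genes gave 86 called results, of which 42 held under every alternative, 44 lost the call under at least 1, and none reversed. The strains differ in mitochondrially encoded RNA as given above, and its part in these results was not tested.

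Of the 7 regulators, 6 were called in Sdc1_mut_Jhd2_KO, 2 higher and 4 lower, where 29.1% of all genes were called higher and 30.1% lower. PHO4, the activator itself, rose there by 0.70 ± 0.15 (adjusted p 0.0015), with 79.9 ± 4.05 CPM in Sdc1_mut_Jhd2_KO and 49.3 ± 2.28 CPM in WT (SD, n = 2 each). PHO85, the kinase, fell there by 0.54 (SE 0.10, 0.00051). PHO2, the partner of Pho4, fell in all 4 strains with a changed SDC1, by 0.67 in Sdc1_KO (0.0025), 0.57 in Sdc1_mut_Jhd2_KO (0.0048), 0.56 in Dpy30_KO (0.0068) and 0.53 in Sdc1_mut (0.0094). The PHO2 call was lost in Dpy30_KO without Dpy30_KO replicate 2 (adjusted p 0.061), and in Sdc1_mut without Sdc1_mut replicate 1 (0.057) or WT replicate 1 (0.059). PHO80, the cyclin, was called in none of the 9 comparisons. VIP1 and KCS1 encode inositol pyrophosphate kinases and DDP1 a phosphatase that breaks these signals down. DDP1 fell by 0.68 in Sdc1_mut_Jhd2_KO (SE 0.09, 5.4e-05), and in Dpy30_KO VIP1 rose by 0.55 ± 0.11 (0.001) and KCS1 fell by 0.44 (SE 0.10, 0.0026). The other calls of these 3 genes against WT each ended with a single library left out.

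Among 7 other transport genes, 1 was called in Sdc1_mut_Jhd2_KO, higher, where 29.1% of all genes were called higher. In Sdc1_KO 6 of the 7 were called, all higher, where 28.0% of all genes were. In Dpy30_KO 4 were called, all higher (27.2% of all genes), and in Sdc1_mut 3, all higher (27.9%). The differences between these counts were not tested. SYG1, a plasma membrane protein with an SPX domain, had 328 and 300.2 CPM in Sdc1_mut_Jhd2_KO, 129.9 and 95.4 in Sdc1_KO, 162 and 149.6 in Dpy30_KO, 161 and 157 in Sdc1_mut, 68.1 and 69.2 in Jhd2_KO, and 77.9 and 72.0 in WT. No library of a strain with a changed SDC1 was as low as WT. SYG1 rose by 2.07 ± 0.13 in Sdc1_mut_Jhd2_KO (adjusted p 1.3e-07), 1.08 ± 0.13 in Sdc1_mut (2.4e-05), 1.06 ± 0.13 in Dpy30_KO (3e-05) and 0.59 ± 0.13 in Sdc1_KO (0.0022). The change of SYG1 with JHD2 loss differed between the point mutant and WT by 1.11 ± 0.18 (0.0018). Of these 26 genes, only SYG1 has fractional counts in the deposited table. The low-affinity transporter genes PHO87 and PHO90 rose in Sdc1_KO by 0.69 ± 0.10 (0.00022) and 0.77 ± 0.10 (6.8e-05). PHO90 was also called higher in Sdc1_mut (0.35, adjusted p 0.011) and Dpy30_KO (0.33, 0.014). Both of these calls were lost without WT replicate 1 (0.33 and 0.31). PHO90 fell in Jhd2_KO by 0.80 (SE 0.10, 0.0044), with 41.4 ± 5.00 CPM in Jhd2_KO and 72.3 ± 1.74 CPM in WT (SD, n = 2 each), a call that was lost without Jhd2_KO replicate 1 (-0.69, 0.11). GIT1, a permease for glycerophosphoinositol, rose by 1.45 ± 0.20 in Sdc1_KO (0.00011) and 0.81 ± 0.21 in Dpy30_KO (0.0055), the second of which was lost without Dpy30_KO replicate 1 (0.057) or WT replicate 2 (0.061). PHO86, needed for Pho84 to leave the endoplasmic reticulum, was called in Sdc1_KO at 0.41 but not without Sdc1_KO replicate 1 (0.21, 0.1) or WT replicate 1 (0.33, 0.084). PHO88, a gene for a protein of the endoplasmic reticulum membrane, rose by 0.47 ± 0.11 in Sdc1_mut (0.003), 0.44 ± 0.11 in Dpy30_KO (0.0046) and 0.41 ± 0.11 in Sdc1_KO (0.0074). The calls in Dpy30_KO and Sdc1_KO were lost without WT replicate 1 (0.36 and 0.33). With JHD2 loss PHO88 fell by 0.57 in the point mutant (SE 0.11, 0.0019). This change differed from that in WT by -0.66 ± 0.15 (0.011), a call lost without WT replicate 1 (-0.59).

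Among 6 other phosphatase and phosphate release genes, DIA3 (a relative of the acid phosphatases) rose in the 4 SDC1 mutants by 1.07 to 1.32. In Jhd2_KO DIA3 was at 0.86 ± 0.20 with both libraries above WT, not called by edgeR (adjusted p 0.054) and called by DESeq2 and limma-trend. PHO13, a cytosolic phosphatase gene, rose by 0.37 to 0.45 in Sdc1_mut_Jhd2_KO, Dpy30_KO and Sdc1_mut. It was called higher in Sdc1_KO too (0.27, adjusted p 0.029), but not with only the groups compared (0.24, 0.2). DIA3 overlaps another gene by 50 bases. GDE1, which breaks down glycerophosphocholine, rose by 1.13 ± 0.16 in Sdc1_mut_Jhd2_KO (adjusted p 7.5e-05), 1.02 ± 0.16 in Dpy30_KO (0.00023) and 0.55 ± 0.16 in Sdc1_mut (0.012), and its log2 fold change in Sdc1_KO was 0.07 (0.72). The GDE1 call in Sdc1_mut was lost without Sdc1_mut replicate 2 (0.088) or WT replicate 2 (0.097). PHO3, the copy of PHO5 named above, rose by 1.10 ± 0.19 in Dpy30_KO (0.00038) and 1.08 ± 0.19 in Sdc1_mut (0.00043). PHO3 was also called higher in Sdc1_KO (0.61 ± 0.19, adjusted p 0.016), but not with only the groups compared (0.57, 0.1). PHO12, the near copy of PHO11, was not called in any comparison. PHM8, a nucleotide phosphatase gene induced at low phosphate, had 87.2 and 90.3 CPM in Sdc1_mut_Jhd2_KO, 21.2 and 38.8 in Sdc1_KO, 37.0 and 31.5 in Dpy30_KO, 43.0 and 32.8 in Sdc1_mut, 65.1 and 64.4 in Jhd2_KO, and 66.1 and 71.1 in WT. It was lower than WT in both libraries of the 3 single SDC1 mutants. It was higher in both of Sdc1_mut_Jhd2_KO, but not called there (0.37 ± 0.20, adjusted p 0.12). It fell by 1.19 in Sdc1_KO (0.00053), 1.00 in Dpy30_KO (0.0015) and 0.86 in Sdc1_mut (0.0038), and its change with JHD2 loss differed between the point mutant and WT by 1.32 ± 0.29 (0.0088). Without Sdc1_mut replicate 2 the PHM8 calls in Sdc1_mut (-0.67, adjusted p 0.057) and in the interaction (1.13, 0.052) were lost.

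Of 6 polyphosphate genes, 3 fell in Sdc1_mut_Jhd2_KO and none rose, where 30.1% of all genes were called lower and 29.1% higher. In Dpy30_KO 4 fell and none rose, where 25.1% of all genes were called lower. In Sdc1_mut 2 fell and none rose (24.7% lower), and in Sdc1_KO 2 fell and 1 rose (22.4% lower). VTC4, the catalytic subunit that polymerises phosphate, fell by 0.70 in Sdc1_mut_Jhd2_KO (SE 0.11, adjusted p 0.00014). Its smaller falls in the 3 single SDC1 mutants, of -0.31 to -0.34, were called but all 3 were lost without WT replicate 1 (adjusted p 0.13 to 0.16). VTC2, another subunit, fell by 0.84 (SE 0.10, 2.3e-05) in Sdc1_mut_Jhd2_KO, 0.57 in Dpy30_KO and 0.48 in Sdc1_mut. PPX1, a cytosolic exopolyphosphatase gene, fell by 0.62 (SE 0.09, 0.00012) in Sdc1_mut_Jhd2_KO and by 0.37 in Dpy30_KO. PPN1, a vacuolar polyphosphatase gene, was called lower in Sdc1_KO (-0.38) and Dpy30_KO (-0.34), and both calls were lost without WT replicate 1 (0.18 and 0.25). VTC5 was called higher in Sdc1_KO (0.40, adjusted p 0.037), but without Sdc1_KO replicate 1 its value was 0.08 (0.58). The direction of VTC2 and VTC4 in Sdc1_mut_Jhd2_KO was thus that of VTC1, whose call there was fragile, and opposite to that of PHO84, PHO89 and PHO5. VTC1 went the way of VTC2 and VTC4 in Sdc1_mut_Jhd2_KO only. In Dpy30_KO and Sdc1_mut too, VTC2 and VTC4 fell while PHO89 and PHO5 rose, with PHO84 at 0.29 and 0.28 (neither called). In Sdc1_KO PHO89 rose, and PHO84 (-0.34) and PHO5 (-0.11) were not called. VTC1 was at 0.26 in Dpy30_KO (a fragile call), 0.23 in Sdc1_mut and 0.15 in Sdc1_KO (neither called). In the same strains VTC2 was at -0.57, -0.48 and -0.26 (the last not called), and VTC4 at -0.31, -0.33 and -0.34.

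**Figure D5:**
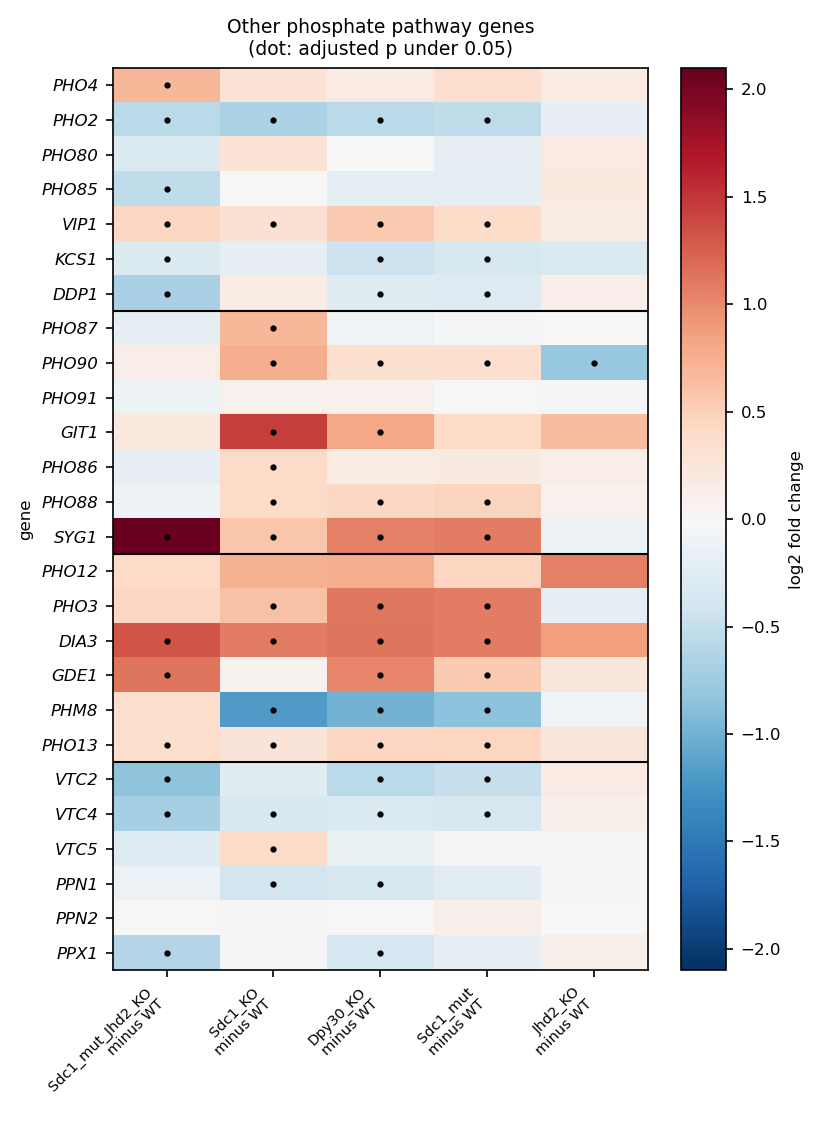
Log2 fold change against WT (colour) of the 26 other phosphate pathway genes (rows, with lines between regulators, transport, phosphatases and polyphosphate genes) in each mutant strain (columns); a dot marks an adjusted p under 0.05. SYG1 is the darkest cell, at 2.07 in Sdc1_mut_Jhd2_KO, and the Jhd2_KO column holds a single dot, PHO90.

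The 10 genes did not vary as 1 block over the 12 libraries. On log2 CPM, Pearson's r was 0.82 between PHO84 and PHO89, 0.74 between PHO84 and PHO5, and 0.68 between PHO84 and SPL2, while it was -0.56 between PHO84 and VTC1 and -0.75 between PHO81 and PHM6. These values describe 12 libraries of 6 strains that share their library scaling. Among the 5741 genes averaging 5 CPM or more, those most like PHO84 by r were DED1 (0.97), MSA1 (0.97), YNL054W-B, LYS2 and YNL190W (0.96 each). PHO5 was most like PDR3 (0.97), CSS1 and GDE1 (0.95 each), YLR030W and DIC1 (0.94 each). SPL2 was most like PUG1 (0.89), YGK3 (0.86), YIL047C-A and EFM3 (0.85 each) and YLR122C (0.84).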

How the data were processed

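RNA of 12 libraries was analysed from a deposited gene table. Per the labels, ribosomal RNA was removed and the libraries were directional. Per the submitters' processing notes, bcl2fastq 2.17.1.14, TopHat and Cufflinks were used with the build sacCer3. The strand setting, annotation and treatment of multiply mapped fragments are not given in the sources used here. The deposited table holds expected counts of fragments before scaling, per the file header, and FPKM that the authors scaled by length and library. Another 2 columns of scaled fragments were not used. From 7126 identifiers, 14 marked as too deep to estimate and listed at 0 were left out.

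Expected counts were rounded. edgeR 4.0.16 (R 4.3.3) kept 6361 of 7112 identifiers with its default filter and fitted all 12 libraries in 6 groups, with TMM scaling and the quasi-likelihood test. Adjustment over all tested genes followed Benjamini and Hochberg, and genes were called under 0.05. The common coefficient of variation was 10.2%. The smallest library, at 8652878 fragments, gives the least precise values. CPM uses TMM-scaled library sizes, so levels are relative to the other RNA of a library. The SE was derived from the log2 fold change and its F statistic. The scripts were tested on simulated data.

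Upstream sequences and gene positions came from RefSeq R64, and copies of members from blastn 2.17.0. Alternatives were RLE scaling, DESeq2 1.42.0, limma-trend (limma 3.58.1), no filter, a replicate block, a fit of only the groups compared, each library left out, and PHO11 and PHO12 summed. Counts with PHM6 left out were added after seeing the data. The 10 genes, the lists and the tests were chosen with earlier results of these data known. Named were all 10 genes, SDC1 and JHD2, other pathway genes called against WT, the regulators and PHO12, and the 5 genes most like PHO84, PHO5 and SPL2.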

Additional observations from a re-analysis of the deposited data

Results flagged for a closer look

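The change with JHD2 loss was larger in the Sdc1 point mutant than in WT for 2 of the 10 genes by the test of the interaction. The difference was 1.26 (log2) for PHO84, with an adjusted p of 0.0016, and 1.10 for PHO89, with an adjusted p of 0.0044. For VTC3 the changes had opposite signs in the point mutant and in WT, with a difference of -0.68 and an adjusted p of 0.011. All 3 come from 2 libraries in each of 4 groups. Mitochondrially encoded RNA was near 0 in both groups with the point mutation and not in Jhd2_KO or WT, and its part was not tested. The interaction was called for 20.4% of all genes tested.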

How the results depend on the processing

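No called result of the 10 genes reversed under any of 272 alternatives: of 26 called results, 19 stayed called under every alternative and 7 lost the call under at least 1. The cause of these changes was not tested. The 19 include the PHM6 calls against WT in Sdc1_KO, Dpy30_KO, Sdc1_mut and Sdc1_mut_Jhd2_KO. PHM6 passed the filter on low counts only through the libraries where it is high, so these calls are no support on their own.

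With only the groups compared in the fit, which leaves fewer libraries to estimate the spread, the number of the 10 genes called was 6 in place of 3 for Sdc1_mut against WT, 1 in place of 0 for Jhd2_KO against WT, 9 in place of 6 for Sdc1_mut_Jhd2_KO against WT, 5 in place of 3 for Sdc1_mut_Jhd2_KO against Sdc1_mut, 2 in place of 4 for Sdc1_KO against Sdc1_mut, and 5 in place of 3 for the interaction. Over all genes it was 2036 in place of 3208 for Sdc1_KO against WT, 623 in place of 104 for Jhd2_KO against WT, 454 in place of 1360 for Sdc1_KO against Sdc1_mut, 17 in place of 1 for Dpy30_KO against Sdc1_mut and 2130 in place of 1297 for the interaction. DESeq2 called 271 genes in Jhd2_KO, 1 of the 10 among them, and 3 in Dpy30_KO against Sdc1_mut. limma-trend called 2 genes in Dpy30_KO against Sdc1_mut and 5 of the 10 in the interaction.

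Leaving out 1 library gave 3 to 6 of the 10 in Sdc1_KO against WT (6 without Sdc1_KO replicate 2), and 1 to 5 in Sdc1_KO against Sdc1_mut (1 without Sdc1_mut replicate 2). Over all genes it gave 5 to 26 in Jhd2_KO, 1100 to 1450 in Sdc1_mut_Jhd2_KO against Sdc1_mut, 646 to 2142 in Sdc1_KO against Sdc1_mut, 1 to 2 in Dpy30_KO against Sdc1_mut and 580 to 1068 in the interaction. Where a group is left with 1 library, it is assumed to vary like the others.

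Replicate numbers gave no clear sign of pairing: the correlation of same-numbered deviations ran from -0.131 to 0.156 and was over 0.1 in 4 of 15 pairs of groups. The mean correlation of a group with the others was above 0 in 5 of 6 groups. With 2 libraries a group, these values cannot tell whether some groups were paired. With the replicate block, 164 genes were called in Jhd2_KO in place of 104. The block ended no call of the 10 genes and added PHO84 in Sdc1_KO (-0.35, adjusted p 0.044), VTC1 in Sdc1_mut (0.23, 0.048), VTC3 in Sdc1_mut_Jhd2_KO (-0.26, 0.039) and VTC1 in the interaction (-0.43, 0.032).

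Some uncalled values changed sign or reached 0 with 1 library left out, with these log2 ranges. In Sdc1_KO against WT these were PHO5 (-0.33 to 0.07), PHO11 (-0.46 to 0.92), PHO8 (-0.08 to 0.63), SPL2 (-0.48 to 0.13). In Dpy30_KO against WT these were PHO11 (-0.02 to 0.66), PHO81 (-0.25 to 0.00), SPL2 (-0.14 to 0.20), VTC3 (-0.15 to 0.12). In Sdc1_mut against WT these were VTC3 (-0.04 to 0.02). In Jhd2_KO against WT these were PHO84 (-0.19 to 0.07), PHO81 (-0.17 to 0.09), SPL2 (-0.97 to 0.06). In Sdc1_mut_Jhd2_KO against WT these were PHO8 (-0.09 to 0.10). In Sdc1_mut_Jhd2_KO against Sdc1_mut these were PHO81 (-0.16 to 0.06). In Sdc1_KO against Sdc1_mut these were PHO11 (-0.94 to 0.46), PHM6 (-0.63 to 0.19). In Dpy30_KO against Sdc1_mut these were PHO84 (-0.21 to 0.21), PHO11 (-0.50 to 0.34), VTC1 (-0.03 to 0.10), VTC3 (-0.15 to 0.12). In the interaction these were PHO5 (-0.16 to 0.10), PHO81 (-0.14 to 0.12).
Summing PHO11 and PHO12 turned PHO11 to 0.52 in Jhd2_KO against WT, 0.15 in both Sdc1_KO and Dpy30_KO against Sdc1_mut, and -0.25 in the interaction. Values at or beside 0 also turned for PHO81 in Sdc1_mut_Jhd2_KO against Sdc1_mut (0.01) and VTC3 in Dpy30_KO against Sdc1_mut (0.00) with only the groups compared, for PHO8 in Sdc1_mut_Jhd2_KO against WT with no filter (-0.00), and for PHO5 (0.02) and PHO81 (0.04) in the interaction with RLE scaling or DESeq2. Depth limits PHM6 and PHO11, at 3 to 36 fragments per library.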
